A study of Mus musculus with 8 samples.

Results

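10 genes known as markers of the ventral striatum and of the neighbouring basal forebrain were followed on bead arrays of mouse striatum: Wfs1, Cartpt, Cbln4, Zcchc12, Crym, Trhr, Lypd1, Nnat, Nts and Stard5. They were chosen by name, and a probe was kept if it had a detection p under 0.05 on 4 or more of the 8 arrays. All 10 genes passed, with 12 of their 13 probes, out of 10008 genes and 13413 probes that passed on the whole array. The tissue came from mice labelled PGC-1α null (4 arrays) and PGC-1α wild type (4 arrays), all of a C57BL/6 background and taken at postnatal day 30. PGC-1α, encoded by Ppargc1a, is a transcriptional coactivator of mitochondrial genes. According to the series title the deletion is in medium spiny neurons, which make up most of the striatum, while the sample labels speak of null mice and name no driver of the deletion. The labels give the cell type as medium spiny neurons, but the source is striatal tissue, so every value covers all of its cells, and fewer cells of a type cannot be told apart from less RNA per cell.

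The striatum is not uniform. Its ventral part, the nucleus accumbens and olfactory tubercle, is tied to reward and feeding circuits and carries neuropeptides such as CART and neurotensin, while the septum, the bed nucleus of the stria terminalis and the preoptic area lie close below and beside it. Several of the genes followed here are also expressed outside the striatum: Wfs1 in hippocampal and amygdalar neurons, Crym and Lypd1 in the cortex, Nts in the lateral septum, and Cartpt and Trhr in the hypothalamus. The labels do not give the borders of the dissection.

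Raw intensity averaged 295 to 499 on the 8 arrays, which detected between 13009 and 13910 probes. Values below are background-corrected, quantile-normalized log2 intensities, and differences are null minus wild-type from limma with their fitted standard error (SE). The 8 arrays lay on 1 chip, where positions A to D held the wild-type and E to H the null samples, so position and group cannot be told apart. The labels do not say whether each replicate is its own animal; the p-values then cover only how far these samples spread, which may be technical. The probe of Ppargc1a read 7.30, 8.09, 8.10 and 7.43 on the null arrays, against 7.35, 7.22, 7.90 and 7.98 on the wild-type arrays, and differed by 0.12 (SE 0.23, limma adjusted p = 0.94). The groups overlapped, and since the labels do not name the deleted part of the gene, this probe is no check of them.

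All 10 genes averaged lower on the null arrays, and none differed past the threshold. The differences ran from -1.23 (Cartpt) to -0.28 (Stard5), with a median of -0.55, beside a median of -0.01 over all 10008 genes. With limma, 0 of the 10 genes passed an adjusted p of 0.05, as did 0 of 13413 probes (0% of the background), and the adjusted p of the 12 probes ran from 0.66 to 0.89. At an unadjusted p under 0.05 stood 4 of the 10 genes, Wfs1, Cartpt, Cbln4 and Zcchc12, all lower, against 3.93% of all genes that were lower and 3.04% that were higher at that level. By probe these were 5 of 12, against 3.7% of all probes. The count of genes was 2 without null replicate 1, null replicate 4 or wild-type replicate 1, and 7 without null replicate 3. Lower by 0.5 or more on the log2 scale were 7 of the 10, against 0.899% of all genes, and by 1 or more Wfs1 and Cartpt, against 0.06%. A lower null mean of any size was found for 51.5% of all genes. In 0 of the 12 probes did the groups part without overlap, while 2.59% of all probes and 2.75% of all genes lay lower on the null arrays without overlap. The genes were chosen with earlier results of these data known, so these counts describe them and support nothing further.

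**Figure D1:**
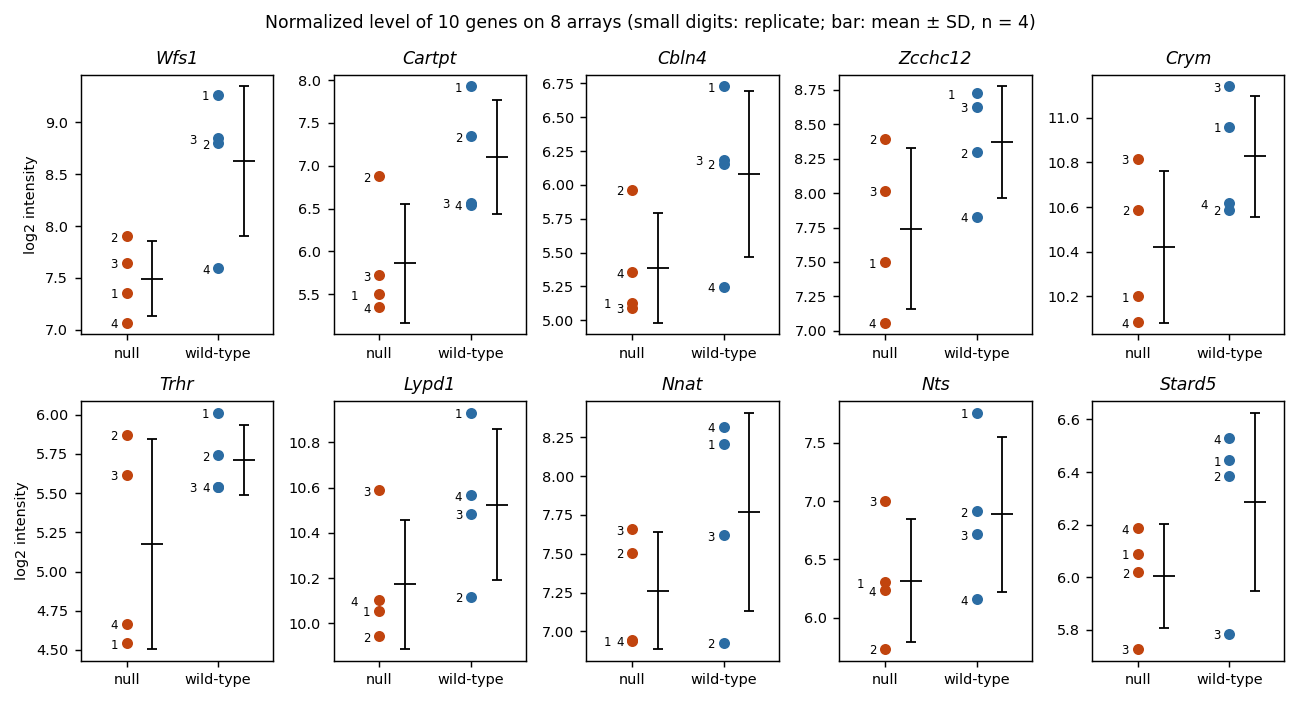
Normalized log2 intensity (y axis) of the 10 genes on the 4 null (orange, left) and 4 wild-type (blue, right) arrays, with small digits for the replicate number and black bars for the mean ± SD. Each gene has a lower null mean and overlapping groups, and wild-type replicate 1 is the highest array for 7 of the 10.

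Among the secreted members Cartpt differed most. It encodes the precursor of CART, a neuropeptide of accumbens neurons. Its probe read 5.50, 6.88, 5.72 and 5.35 on the null arrays, against 7.93, 7.34, 6.57 and 6.55 on the wild-type arrays. Null replicates 1, 3 and 4 lay below every wild-type array, while null replicate 2 lay above wild-type replicates 3 and 4. The means were 5.86 ± 0.69 in null and 7.10 ± 0.67 in wild-type arrays (SD, n = 4 each), which differ by -1.23 (SE 0.36, 95% interval -2.02 to -0.45, limma adjusted p = 0.70). The null intensity was thus 42.5% of the wild-type. Another probe, filed under Cart, is left out by the rule on symbols, although RefSeq lists Cart as an older symbol of this gene. It read 5.85, 7.36, 5.96 and 5.71 on the null arrays, against 8.82, 8.09, 7.18 and 6.95 on the wild-type arrays, and differed by -1.54 (SE 0.43, limma adjusted p = 0.67). Both probes gave the same order of groups, with null replicate 2 again the highest null array and inside the wild-type range.

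Nts encodes the precursor of neurotensin, a peptide of accumbens and septal neurons that modulates dopamine signalling. Its brighter probe read 6.30, 5.73, 7.0 and 6.23 on the null arrays, against 7.76, 6.91, 6.71 and 6.16 on the wild-type arrays. Here null replicate 2 was the lowest array and null replicate 3 lay above 3 of the 4 wild-type arrays, an order unlike that of Cartpt. The difference was -0.57 (SE 0.32, 95% interval -1.27 to 0.13, limma adjusted p = 0.75). It came to -0.37 with null replicate 2 left out, and to -0.27 with wild-type replicate 1 left out. A second Nts probe was detected on 1 array, null replicate 4, and did not enter. Cbln4 encodes a secreted C1q-family protein that organises synapses. It read 5.13, 5.97, 5.09 and 5.35 on the null arrays, against 6.73, 6.16, 6.18 and 5.25 on the wild-type arrays. Wild-type replicate 4 lay inside the null range and the other 3 wild-type arrays above it, for a difference of -0.69 (SE 0.28, 95% interval -1.31 to -0.08, limma adjusted p = 0.71).

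Among the membrane proteins Wfs1 differed most. It encodes wolframin, a protein of the endoplasmic reticulum that is mutated in Wolfram syndrome, and marks ventral striatal neurons. It read 7.36, 7.90, 7.64 and 7.07 on the null arrays, against 9.27, 8.80, 8.85 and 7.59 on the wild-type arrays. Wild-type replicates 1, 2 and 3 lay above every null array, and wild-type replicate 4 lay among the null arrays. The means were 7.49 ± 0.36 in null and 8.63 ± 0.72 in wild-type arrays (SD, n = 4 each), which differ by -1.13 (SE 0.31, 95% interval -1.80 to -0.47, limma adjusted p = 0.66). The null intensity was 45.6% of the wild-type. Wfs1 lies on chromosome 5, as does Ppargc1a, with 46 annotated protein-coding genes between them in the RefSeq table of GRCm38.p6.

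Trhr encodes the receptor of thyrotropin-releasing hormone. It read 4.54, 5.87, 5.62 and 4.67 on the null arrays, against 6.01, 5.74, 5.54 and 5.54 on the wild-type arrays, and was detected on 2 of the 4 null and 4 of the 4 wild-type arrays. Null replicates 1 and 4 were not detected and lay below all others, while null replicates 2 and 3 lay inside the wild-type range (difference -0.53, SE 0.27, limma adjusted p = 0.74), and without null replicate 1 the difference was -0.32. Lypd1, a Ly6-family protein anchored in the membrane that modulates nicotinic acetylcholine receptors, read 10.05, 9.94, 10.59 and 10.10 on the null arrays, against 10.93, 10.12, 10.48 and 10.57 on the wild-type arrays. Null replicates 1, 2 and 4 lay just below the lowest wild-type array, replicate 2, and null replicate 3 above 3 of the 4 wild-type arrays (difference -0.35, SE 0.19, limma adjusted p = 0.75), and without wild-type replicate 1 the difference was -0.22. Nnat, an imprinted gene for a small membrane protein of the endoplasmic reticulum, read 6.94, 7.51, 7.66 and 6.94 on the null arrays, against 8.21, 6.93, 7.62 and 8.32 on the wild-type arrays. Its lowest array was wild-type replicate 2, and the difference of -0.51 (SE 0.28, limma adjusted p = 0.75) was near the wild-type SD of 0.64. It was -0.32 without wild-type replicate 4 and -0.79 without wild-type replicate 2. The second Nnat probe, named in the array design for transcript variant 2, differed by -0.24 (SE 0.32), and both probes had their highest reading on wild-type replicate 4.

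Among the intracellular members Zcchc12 differed most. It encodes a zinc finger coactivator of BMP signalling that takes part in gene expression of basal forebrain cholinergic neurons. Its probe read 7.50, 8.39, 8.02 and 7.06 on the null arrays, against 8.73, 8.30, 8.63 and 7.83 on the wild-type arrays. Null replicates 1 and 4 lay below every wild-type array and null replicates 2 and 3 inside the wild-type range (difference -0.63, SE 0.27, 95% interval -1.23 to -0.03, limma adjusted p = 0.71), and without null replicate 4 the difference was -0.40. Crym encodes mu-crystallin, a cytosolic binding protein of thyroid hormone that is high in the medial and ventral striatum. It read 10.20, 10.59, 10.82 and 10.08 on the null arrays, against 10.96, 10.59, 11.14 and 10.62 on the wild-type arrays, and differed by -0.40 (SE 0.19, limma adjusted p = 0.72), or 75.5% of the wild-type intensity. As for Zcchc12, null replicates 1 and 4 were the lowest arrays. Stard5, a sterol-binding protein of the START family, had the smallest difference of the 10 brightest probes. It read 6.09, 6.02, 5.73 and 6.19 on the null arrays, against 6.45, 6.39, 5.78 and 6.53 on the wild-type arrays (difference -0.28, SE 0.17, limma adjusted p = 0.77), with a difference of -0.45 without wild-type replicate 3. Replicate 3 was the lowest array in each group, and the other 3 wild-type arrays lay above all null arrays. The dimmer Stard5 probe, detected on 2 of 4 null and 3 of 4 wild-type arrays, differed by -0.50 (SE 0.18) and had its lowest readings on the same arrays.

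**Figure D2:**
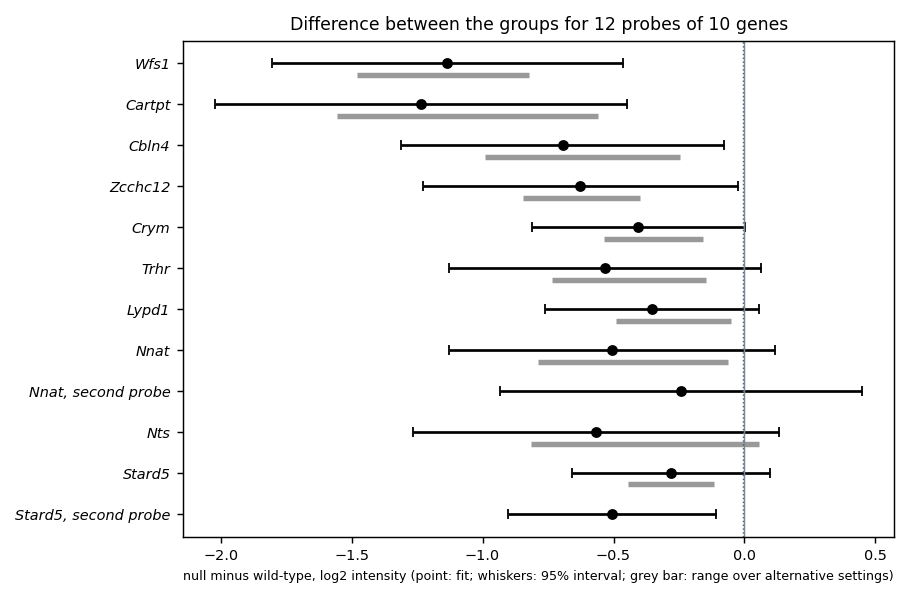
Difference in log2 intensity, null minus wild-type (x axis), for the 12 probes, with the fitted value (point), its 95% interval (whiskers) and, for the brightest probe of each gene, the range over the alternative settings (grey bar); the dotted line is the median of all genes. All points lie below 0, from -1.23 to -0.24, and the intervals of Wfs1, Cartpt, Cbln4, Zcchc12 and the second Stard5 probe end below 0 before adjustment over all probes.

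The genes did not form a single pattern over the arrays. Wfs1, Cartpt, Cbln4 and Zcchc12 varied together, with Pearson's r between 0.801 and 0.915 over the 8 arrays in their pairs, and from 0.692 to 0.874 once the group means were removed. They were not set apart from the rest. Zcchc12 had r = 0.885 with Crym and 0.873 with Trhr, and Cartpt had 0.836 with Trhr. With group means removed these were 0.823, 0.819 and 0.776. Cbln4 followed Crym and Trhr less closely (0.584 and 0.657). Lypd1 and Nnat had r = 0.805. Stard5 stood apart, with r from -0.231 to 0.478 with the other 9 genes. These values describe 8 arrays that also differ in tissue make-up and carry no test. All 10 genes had their highest reading on a wild-type array, 7 of them on wild-type replicate 1, and 9 had their lowest on a null array, 4 of them on null replicate 4. The mean of the centred levels over the 10 genes was -0.54, -0.02, -0.11 and -0.60 on the null arrays, against 0.80, 0.23, 0.25 and -0.01 on the wild-type arrays. Null replicates 1 and 4 and wild-type replicate 1 lie farthest from 0 in this mean, and null replicate 2 and wild-type replicate 4 lie side by side.

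The promoter sequences of Wfs1, Cartpt, Cbln4 and Zcchc12 are shown, since each of their pairs had r of 0.801 or more. They are the 250 bases before the annotated start, from RefSeq (GRCm38.p6), 5′ to 3′ on the strand of the gene, and capitals mark matches on either strand to TGACG, the core shared by cyclic AMP response elements. RefSeq's table held 8 of the 10 genes in 10 windows, 3 of them for Lypd1; Crym and Trhr were not matched.
Wfs1, chr5:36988983-36989232, minus strand: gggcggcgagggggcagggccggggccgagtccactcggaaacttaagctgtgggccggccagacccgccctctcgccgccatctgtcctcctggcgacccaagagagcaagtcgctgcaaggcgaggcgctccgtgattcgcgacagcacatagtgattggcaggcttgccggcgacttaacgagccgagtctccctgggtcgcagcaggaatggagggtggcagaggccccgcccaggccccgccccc
Cartpt, chr13:99900684-99900933, minus strand: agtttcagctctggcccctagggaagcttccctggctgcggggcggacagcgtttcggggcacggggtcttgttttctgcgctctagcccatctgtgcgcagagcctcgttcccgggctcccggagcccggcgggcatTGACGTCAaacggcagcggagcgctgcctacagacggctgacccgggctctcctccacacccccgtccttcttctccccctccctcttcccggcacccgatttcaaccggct
Cbln4, chr2:172043467-172043716, minus strand: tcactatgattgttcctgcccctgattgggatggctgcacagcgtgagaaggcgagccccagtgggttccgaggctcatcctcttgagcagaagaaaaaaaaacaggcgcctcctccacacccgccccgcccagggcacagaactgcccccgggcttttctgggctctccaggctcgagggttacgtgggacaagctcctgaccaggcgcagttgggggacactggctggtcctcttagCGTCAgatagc
Zcchc12, chrX:36195654-36195903, plus strand: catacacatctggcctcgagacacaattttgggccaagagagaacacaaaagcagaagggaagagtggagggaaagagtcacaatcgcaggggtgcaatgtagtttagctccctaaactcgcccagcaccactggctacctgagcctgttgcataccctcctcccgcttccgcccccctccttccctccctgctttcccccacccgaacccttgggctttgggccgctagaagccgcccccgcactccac
The full palindromic element TGACGTCA was found in Cartpt, starting 112 bases before the start, and in 1.55% of 32851 promoter windows of the same length; it contains the TGACG core on both strands. The core TGACG, matches inside that element included, was found in 5 of the 8 genes, Cartpt, Cbln4, Lypd1, Nts and Stard5, for Lypd1 in 1 of its 3 windows. By window these were 5 of 10, against 17.8% of all windows. The element AAGGTCA, bound by estrogen-related receptors, which partner with PGC-1α, was found in 0 of the 10 windows and in 4.08% of all windows. The windows of Wfs1, Cartpt, Cbln4 and Zcchc12 held 58.8% to 69.6% G and C, against a median of 52.4% over all windows. Wfs1 and Zcchc12 held no TGACG in this window, so the core is not shared by the 4 genes. The GC box GGGCGG was found in all 4, in 8 of the 10 windows and in 32.7% of all windows. A match of letters is a description and not a binding site.

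Other genes of the same regions, from lists written from general knowledge, gave the context of the tissue. Of 10 further ventral striatal genes listed, 5 passed the detection filter. Of these, Dlk1 passed through the wild-type arrays alone, so its direction was set by the filter. Of the other 4, 3 averaged lower on the null arrays (median of the 4 -0.41). At an unadjusted limma p under 0.05 were 2 of these, both lower, against 3.93% of all genes, and 0 passed the adjusted threshold. Dlk1, an imprinted gene for a transmembrane protein of the Notch ligand family, was not detected on any null array and read 5.46, 5.20, 4.91 and 4.98 on the wild-type arrays. Its wild-type level was at least 1.22-fold the null level (limma adjusted p = 0.66), a bound from its mean there against the lowest detected signal of each null array, or the probe's own where higher. Htr2c, a serotonin receptor gene, read 5.01, 4.70, 5.02 and 4.56 on the null arrays, against 5.48, 5.10, 5.28 and 5.16 on the wild-type arrays (difference -0.43, SE 0.14, limma adjusted p = 0.70). It was detected on 2 of 4 null and 4 of 4 wild-type arrays. Its groups did not overlap, while 2.75% of all genes lay lower on the null arrays without overlap. Oprk1, the kappa opioid receptor gene, differed by -0.38 (SE 0.14) with overlapping groups. Drd3, a dopamine receptor gene of the islands of Calleja, was detected on 0 of the 8 arrays, and Calcr, Tac2 and Arhgap36 on 1 each.

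Of the hypothalamic and preoptic list 4 of 11 genes passed the filter, and all 4 averaged lower on the null arrays (median -0.41). Nkx2-1, a transcription factor gene of the ventral forebrain, read 6.07, 5.82, 6.41 and 6.53 on the null arrays, against 7.04, 6.43, 6.74 and 6.5 on the wild-type arrays (difference -0.47, SE 0.18, limma adjusted p = 0.71). Gal, the galanin gene, differed by -0.53 (SE 0.23) and was detected on 1 of 4 null and 3 of 4 wild-type arrays. The defining hypothalamic genes Avp, Hcrt, Sim1 and Otp were detected on 0 of the 8 arrays and Pmch and Esr1 on 1, while the peptide genes Trh and Oxt were detected on 8 and 7. Trh read 6.00, 6.10, 6.38 and 6.03 on the null arrays, against 6.36, 6.63, 6.90 and 6.04 on the wild-type arrays (difference -0.35, SE 0.18), and Oxt also differed by -0.35 (SE 0.20), both with overlapping groups. The list score, the mean of its genes' centred levels, was -0.34, -0.42, 0.02 and -0.12 on the null arrays, against 0.53, 0.09, 0.31 and -0.07 on the wild-type arrays. Its highest array was wild-type replicate 1, as for 7 of the 10 genes followed here. The score rests on Nkx2-1, Gal, Trh and Oxt alone. With the defining genes all but undetected, it is not shown to measure hypothalamic tissue. The part of neighbouring tissue in the differences of the 10 genes was not tested. The septal list, with 3 of 5 genes passing, had a median of -0.21, with null scores from -0.44 to 0.31 and wild-type scores from -0.35 to 0.47, so that the groups covered nearly the same range. Of the cholinergic list, shared by the basal forebrain and the striatum, 8 of 9 genes passed the filter. All 8 averaged lower (median -0.45), as did 51.5% of all genes. Of the 8, 5 were lower at an unadjusted limma p under 0.05, against 3.93% of all genes, and 0 passed the adjusted threshold. Ecel1, Slc10a4 and Chat parted the groups without overlap, against 4.25% of all genes.

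Markers of the tissue above the striatum ran the other way. All 6 detected cortical excitatory neuron genes averaged higher on the null arrays, with a median of 0.89 and 0 past the adjusted threshold, and 5 of the 11 listed were not kept. Their score was 0.29, 1.5, -0.40 and 0.42 on the null arrays, against -1.55, 0.07, -0.56 and 0.24 on the wild-type arrays. Slc17a7, which encodes a vesicular glutamate transporter, read 8.65, 10.46, 8.11 and 8.89 on the null arrays, against 4.97, 8.53, 7.66 and 8.80 on the wild-type arrays. The groups overlap, and the extremes are null replicate 2 and wild-type replicate 1. Genes of the claustrum and endopiriform cortex followed, with a median of 0.40 over 4 genes and 1.00 on null replicate 2 against -0.74 on wild-type replicate 1. Of the shared medium spiny neuron genes 11 of 12 averaged lower on the null arrays (median -0.31), in the direction of the 10 genes followed here. Of the 12, 4 were lower at an unadjusted limma p under 0.05, against 3.93% of all genes, and 0 passed the adjusted threshold. Without background correction 10 of the 12 averaged lower. Rgs14, a regulator of G protein signalling, differed by -0.58 (SE 0.14, limma adjusted p = 0.66) and Ppp1r1b, which encodes DARPP-32, by -0.43 (SE 0.14, limma adjusted p = 0.70), both without overlap, against 4.25% of all genes. This list had null scores from -0.60 (replicate 2) to 0.17 and wild-type scores from -0.04 to 0.28. Wild-type replicate 1 had the least cortical signal and the most Cartpt, Wfs1, Cbln4, Zcchc12, Trhr, Lypd1 and Nts. Null replicate 2, with the most cortical signal, was the lowest array for Lypd1 and Nts. It was also the highest null array for Cartpt, Wfs1, Cbln4, Zcchc12 and Trhr.

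**Figure D3:**
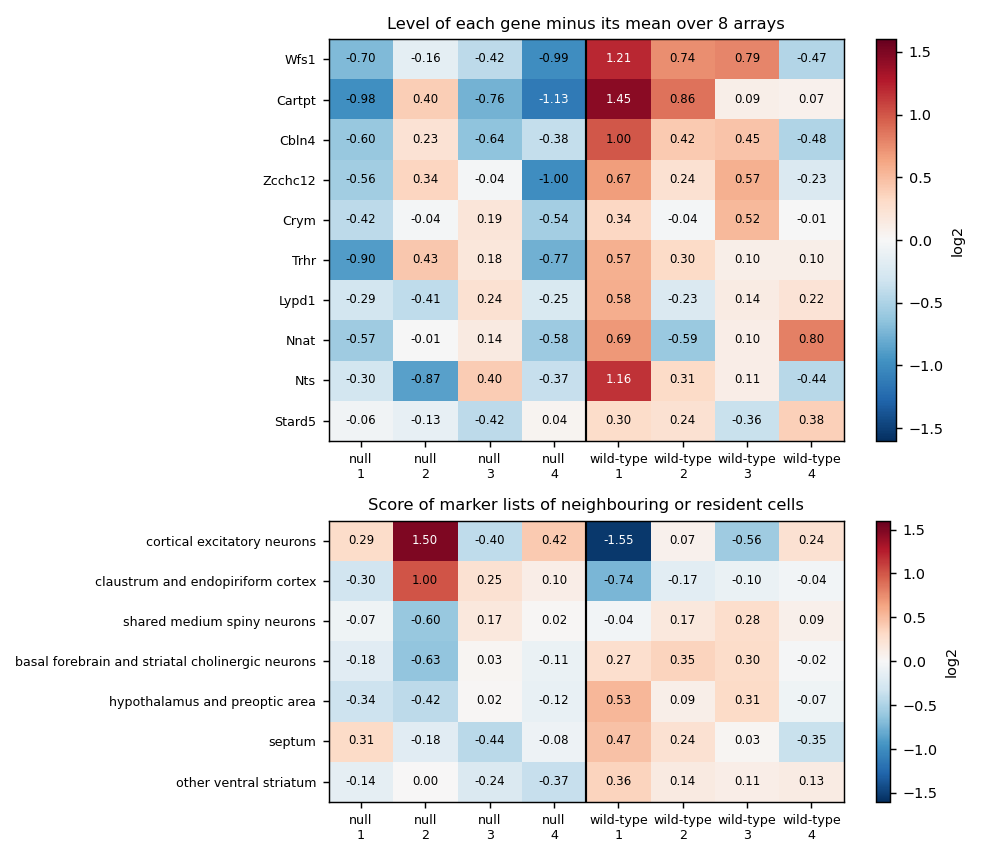
Centred log2 level of the 10 genes (upper panel) and score of 7 marker lists (lower panel) on each array, null at left and wild-type at right of the black line, with red for above and blue for below the mean over 8 arrays. Null replicate 2 has the highest cortical score (1.5) and the highest null Cartpt, Wfs1 and Cbln4, and wild-type replicate 1 the lowest cortical score (-1.55).

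Each gene was set against 5 of these list scores over the 8 arrays, 50 relations in all, and 0 passed an adjusted p of 0.05. The smallest adjusted p was 0.0645, and 8 relations had an unadjusted exact permutation p under 0.05. The closest was Nts with the cortical score (Pearson's r = -0.936, exact permutation p = 0.00191, adjusted p = 0.0645; Spearman's rho = -0.857, exact permutation p = 0.0107, adjusted p = 0.218; two-sided, n = 8). Without null replicate 2 and wild-type replicate 1, the arrays farthest from the median score, r was -0.744, and with group means removed it was -0.917. Lypd1 had r = -0.864 with the cortical score (exact permutation p = 0.00367, adjusted p = 0.0645, rho = -0.857 with exact permutation p = 0.0107 and adjusted p = 0.218), -0.641 without those 2 arrays and -0.806 with group means removed. Nts with the hypothalamic score had r = 0.881 (exact permutation p = 0.00387, adjusted p = 0.0645, rho = 0.81 with exact permutation p = 0.0218 and adjusted p = 0.218), and 0.61 without the same 2 arrays. Wfs1 had r = -0.62 with the cortical score (exact permutation p = 0.0976, adjusted p = 0.444, rho = -0.714 with exact permutation p = 0.0576 and adjusted p = 0.32), -0.628 without those 2 arrays and -0.376 with group means removed. All 10 genes had a negative r with the cortical score, from -0.936 to -0.0934, and all 10 a positive one with the hypothalamic score, from 0.146 to 0.881. Genes and scores both differ between the groups, so these signs in part restate the group difference. With group means removed, 7 of the 10 were negative with the cortical score, while Cartpt (0.047), Trhr (0.022) and Stard5 (0.252) were positive, and 9 were positive with the hypothalamic score, Stard5 being the exception at -0.368. With the shared medium spiny neuron score 5 were positive and 5 negative, and with group means removed 2 were positive. Within the groups, r over 4 arrays is given as a description with no test. With the cortical score it was -0.969 on the null and -0.886 on the wild-type arrays for Nts, and -0.854 on the null and -0.77 on the wild-type arrays for Lypd1. The signs were opposite for Cartpt, with 0.768 on the null and -0.682 on the wild-type arrays, and for Cbln4, with 0.946 on the null and -0.845 on the wild-type arrays. They were also opposite, null before wild-type, for Wfs1 (0.392 and -0.774), Zcchc12 (0.368 and -0.846) and Trhr (0.297 and -0.763). Crym and Nnat were negative and Stard5 positive in both groups.

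**Figure D4:**
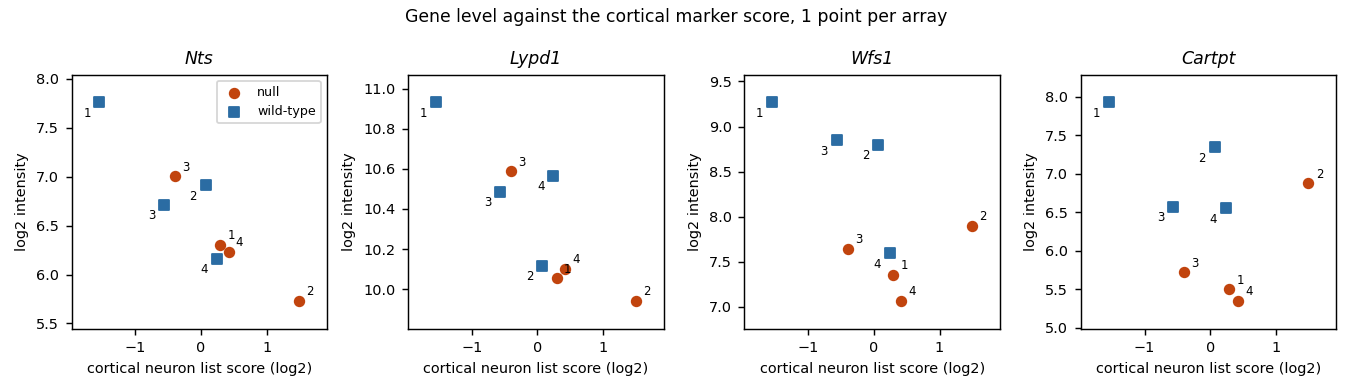
Log2 intensity of Nts, Lypd1, Wfs1 and Cartpt (y axes) against the cortical marker score (x axis), 1 point per array, orange circles for null and blue squares for wild-type, digits for the replicate. Nts and Lypd1 lie lower where the score is higher in both groups (r = -0.936 and -0.864), while Cartpt on null replicate 2, the array with the highest score, reads 6.88, above the other 3 null arrays.

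With the cortical score added to the fit, the genes did not all change alike. Nts differed by 0.054 (SE 0.20) and Lypd1 by -0.07 (SE 0.17) in that fit, against -0.57 and -0.35 without it. Cartpt stayed at -1.27 (SE 0.44), Wfs1 at -0.89 (SE 0.35), Cbln4 at -0.61 (SE 0.35), Zcchc12 at -0.55 (SE 0.34) and Trhr at -0.55 (SE 0.34), with 0 of 13413 probes past the limma threshold. Crym came to -0.27 (SE 0.22), Nnat to -0.38 (SE 0.35) and Stard5 to -0.36 (SE 0.21). Without null replicate 2 and wild-type replicate 1, the arrays with the highest and lowest cortical score, all 10 genes again averaged lower, Cartpt by -1.26 and Wfs1 by -1.06, but Nts by -0.08 and Lypd1 by -0.14. Sex-linked genes were unevenly spread over the groups. The Y-linked Eif2s3y read 9.49, 9.29, 4.41 and 9.40 on the null arrays, against 4.35, 9.14, 4.32 and 4.40 on the wild-type arrays, high on 3 null arrays and 1 wild-type array. With a sex-linked score in the fit, Lypd1 differed by -0.05, Nnat by -0.06, Crym by -0.16 and Nts by -0.32, while Wfs1 differed by -1.14, Cartpt by -1.40 and Cbln4 by -0.85. Zcchc12 differed by -0.49, Trhr by -0.38 and Stard5 by -0.44 in that fit. Beyond these fits, the part of sex and of tissue make-up in the differences was not tested.

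Genes outside the list with the most similar course were named by a fixed rule, as a likeness over 8 arrays and with no test. Nearest to the mean of the 10 genes, among 9998 others, were Zcchc18 (r = 0.978), a relative of Zcchc12, the calcium/calmodulin-dependent kinase gene Pnck (0.956), Scg2, which encodes secretogranin II (0.942), Ascc1 (0.938), Sec13 (0.931) and the potassium channel gene Kcnq5 (0.929). All 6 averaged lower on the null arrays, from -0.15 (Sec13) to -0.69 (Scg2), and none passed the threshold. Nearest to Wfs1 were Pnck (0.986) and Kcnq5 (0.972), and nearest to Cartpt the probe under its older symbol (0.996) and Tmem130 (0.956). Cbln4 was followed most closely by Mfap1b (0.98) and Thap11 (0.968), Zcchc12 by the imprinted gene Grb10 (0.956) and 6330403K07Rik (0.954), and Trhr by the imprinted gene Ndn (0.973) and Grwd1 (0.963). For Crym these were B230340J04Rik (0.956) and 2610002J02Rik (0.938), for Lypd1 Rbm5 (0.945) and Btg1 (0.933), for Nnat Bud13 (0.94) and Dhdds (0.921), for Nts 6430527G18Rik (0.936) and Snw1 (0.935), and for Stard5 Anxa3 (0.957) and 4930504E06Rik (0.954).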

How the data were processed

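Striatal RNA of 8 mouse samples was measured on Illumina bead arrays. Per the file headers, the deposited table holds, for each probe and array, a linear intensity averaged over beads with its detection p-value, not normalized between arrays; the submitters' processing notes name GenomeStudio. The authors' processed intensity values (median 14.9 to 15.0 per array, 23.1% below 0) ranked the probes of each array as its raw values did, on a linear scale; their centring and how they were made stay unknown.

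neqc (offset 16) corrected and quantile-normalized the raw intensities, in limma 3.58.1 under R 4.3.3. Probes detected (p under 0.05) on at least 4 of 8 arrays were kept, 13413 of 25697. lmFit and eBayes gave two-sided tests of null minus wild-type, and p-values were adjusted over the kept probes by Benjamini-Hochberg. For genes with several probes the brightest kept probe stands for the gene. Groups and replicate numbers come from the sample titles. A list score is the mean of gene-centred log2 values. The sex-linked score in the fit was that mean over the Y-linked genes, minus the centred level of the X-linked Xist. The 10 genes, the marker lists (96 of 134 genes kept, in 18 lists) and the tests were chosen with earlier results of these data known. Named genes are all kept probes of the 10 genes, up to 3 genes with the smallest p per list described, and the nearest genes by Pearson's r. Drd3, Calcr, Tac2, Arhgap36, Avp, Hcrt, Sim1, Otp, Pmch, Esr1, Oxt, Chat, Eif2s3y, Xist and Ppargc1a are named beside them for their detection or as checks. Promoter windows, with motifs sought on both strands, come from RefSeq (GRCm38.p6). The steps were tested on simulated data. Precision is limited by the number of arrays, with a median SE of 0.15. Alternatives were the replicate block, other background correction and normalization, the processed values, other detection filters, covariates and leaving out arrays.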

Additional observations from a re-analysis of the deposited data

How the results depend on the processing

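Over 18 alternative settings, 176 of 177 refitted differences of the 10 genes stayed below 0 and 0 of 177 passed the threshold (smallest adjusted p = 0.31, Wfs1 without wild-type replicate 4). The exception was Nts, at 0.054 with the cortical score as a covariate. The replicate block and the other detection filters left each fitted difference as it was, so those settings could not change a sign. The count of probes past the threshold stayed at 0 in every setting run, and the count of genes averaging lower at 10, except 9 with that covariate and 7 of the 7 genes left at a detection p under 0.01 on all arrays. The median over the 10 genes was -0.55, ran from -0.71 (without wild-type replicate 4) to -0.39 (without wild-type replicate 1) when single arrays were left out, and was -0.33 without background correction, where the differences of dim genes were smaller (Cartpt -0.56, Cbln4 -0.24, Trhr -0.15). Without null replicate 4 it was -0.40. With the replicate number as a block the differences could not change, since each number occurs once in each group, and the median was again -0.55. In that fit 0 probes passed, and Wfs1 had an SE of 0.21, against 0.31 in the main fit, and a limma adjusted p of 0.59. At an unadjusted limma p under 0.05 stood 6 of the 10 genes, against 4 in the main fit. With the block 507 of all 13413 probes were lower at that level. Same-numbered samples did not all deviate together (r = 0.087, -0.0037, 0.234 and 0.045 for replicates 1 to 4). Such correlations cannot settle whether the numbers pair the samples. The relation of Nts with the claustrum score (r = -0.732) turned to 0.262 without null replicate 2 and wild-type replicate 1, an alternative with fewer samples. No relation passed under the other normalizations (smallest adjusted p from 0.0649 to 0.131). Leaving out null replicate 2 and wild-type replicate 1 from the fit was chosen after seeing the data. Trhr, Gal, Htr2c and the second Stard5 probe sit near background. Cbln4 came close to it on null replicates 1, 3 and 4 and wild-type replicate 4, with a detection p from 0.014 to 0.021. The genes lost at a detection p under 0.01 on all arrays were Cartpt, Cbln4 and Trhr.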

Other observations

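Transthyretin, the main transcript of the choroid plexus of the lateral ventricle, had a wider range over the arrays than any gene given above. Ttr read 6.14, 5.68, 6.83 and 13.10 on the null arrays, against 11.27, 11.28, 9.72 and 9.22 on the wild-type arrays (difference -2.43, SE 1.31, limma adjusted p = 0.75). Null replicate 4 was the highest array of all and the other 3 null arrays the lowest, so the groups overlap. Clic6, a chloride channel gene of the same epithelium, read 7.72, 7.46, 8.29 and 8.53 on the null arrays, against 8.87, 8.56, 8.95 and 8.51 on the wild-type arrays (difference -0.72, SE 0.22, limma adjusted p = 0.70). Of the 6 genes listed for choroid plexus and ependyma 3 passed the filter, and the third, Foxj1, differed by -0.005 (SE 0.22). With the authors' processed values 2 of the 3 averaged lower on the null arrays. Null replicate 4, highest for Ttr, was the lowest array for Wfs1, Cartpt, Zcchc12 and Crym.

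Hap1, which encodes a huntingtin-associated protein of the hypothalamus and basal forebrain, read 10.51, 10.81, 11.05 and 10.64 on the null arrays, against 11.70, 11.24, 11.46 and 11.35 on the wild-type arrays (difference -0.68, SE 0.15, limma adjusted p = 0.66). Its groups did not overlap, while 2.75% of all genes lay lower on the null arrays without overlap. The imprinted gene Peg3 differed by -0.23 (SE 0.12) and Ndn by -0.20 (SE 0.15). Nr4a2, a marker of the claustrum and deep cortex, read 6.74, 8.73, 7.51 and 7.65 on the null arrays, against 4.89, 7.06, 6.62 and 7.03 on the wild-type arrays (difference 1.26, SE 0.48, limma adjusted p = 0.70). Of the dorsolateral pair Cnr1 and Rgs4, Cnr1 differed by 0.03 and Rgs4 by -0.17.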
